A study of Bos taurus with 4 samples.

Results

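ATP12A, RAB3B and PLXNA4 are 3 genes that were almost without reads in subcutaneous fat of the bovine fetus and had from 54 to 1110 reads in each library of adult fat. They were chosen from these same reads for that pattern, by their symbols and UniGene clusters (Bt.63059, Bt.388 and Bt.11507), so their fetal and adult levels are given as a description without a test. They are 3 of the 5050 gene symbols found on the 36373 clusters of the series, and each of the 3 symbols belonged to 1 cluster.

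Subcutaneous fat was sampled from Qinchuan cattle, which are a breed of China, at 2 stages. The fetal group is called ATFB here, and the adult groups are ATAB (bulls), ATAH (heifers) and ATAS (steers, that is castrated males). By the labels the fetuses were 200 to 250 days old and the adults 18 to 24 months old, while the study's methods give 1 age for each stage. Tissue of 5 animals was pooled for each group and sequenced as 1 library, so there were no replicates, the spread between animals was not measured, and nothing that follows has a check between replicates. No treatment or transgene is named, castration was part of the ATAS group alone, and the sex of the fetuses was not given in the sources used here. The counted reads were 15.3 to 16.1 M per library.

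ATP12A is the catalytic chain of the non-gastric H+/K+ ATPase, a P-type pump of the cell membrane that takes in potassium and exports protons and that works with a beta chain. RAB3B is a small GTPase of the Rab3 family, which in its GTP-bound form sits on secretory vesicles and helps them dock before regulated exocytosis. PLXNA4 is a class A plexin, the signalling receptor that binds class 3 semaphorins together with a neuropilin and is best known for guiding growing axons. White fat stores triglyceride in adipocytes, and in late gestation much of the tissue is still connective tissue and precursor cells.

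Reads were counted on 1 sequence per cluster, and the sequences of the 3 genes were compared with those of their relatives first, since reads of close copies can be split or exchanged between them. A cluster with exactly 1 read had a median of 90 covered bases in all 4 libraries, so a window of 90 bases stands for 1 read. By its methods the authors' alignment allowed fewer than 3 mismatches, while the table of mapped reads goes up to 5, so both limits were used. Of the 90-base windows, none of the 3318 of ATP12A, the 1065 of RAB3B or the 5752 of PLXNA4 came within 2 mismatches of any other counted cluster to which its sequence could be aligned. The least number of mismatches was 7 for ATP12A, 10 for RAB3B (to RAB3A) and 4 for PLXNA4 (to Bt.110875, a cluster without a symbol). With up to 5 mismatches ATP12A and RAB3B still had 0 such windows, but PLXNA4 had 75, shared with Bt.110875, Bt.110651 (also without a symbol) and PLXNA3. Reads in ATFB, ATAB, ATAH and ATAS numbered 37, 205, 325 and 233 on Bt.110875, and 10, 71, 114 and 89 on Bt.110651. Whether any read was exchanged with these clusters was not tested.

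The coding windows of RAB3B and PLXNA4 most like a relative with a symbol are shown here, with that of PLXNA4 most like any other cluster, because they show how far a read of 1 gene is from the next. Each is read 5′ to 3′ from the cluster sequence in the authors' sequence file, with positions counted from its first base, and capitals mark the bases of the relative that differ from the gene above.

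In RAB3B, bases 302 to 391 hold the switch region that senses the bound nucleotide, and RAB3A, RAB3C and RAB3D differed there at 10, 13 and 11 bases:
RAB3B: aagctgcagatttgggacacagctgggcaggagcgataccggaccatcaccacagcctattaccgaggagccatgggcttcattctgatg
RAB3A: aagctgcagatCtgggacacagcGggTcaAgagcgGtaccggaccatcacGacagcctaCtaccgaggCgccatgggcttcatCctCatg
RAB3C: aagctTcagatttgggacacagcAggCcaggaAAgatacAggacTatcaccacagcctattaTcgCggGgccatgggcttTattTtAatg
RAB3D: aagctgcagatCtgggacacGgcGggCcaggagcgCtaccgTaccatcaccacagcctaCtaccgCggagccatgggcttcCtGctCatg

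In PLXNA4, bases 5323 to 5412 lie near the end of the coding sequence, and PLXNA2 and PLXNA3 differed there at 6 and 5 bases:
PLXNA4: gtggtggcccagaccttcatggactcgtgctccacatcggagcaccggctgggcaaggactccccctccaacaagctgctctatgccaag
PLXNA2: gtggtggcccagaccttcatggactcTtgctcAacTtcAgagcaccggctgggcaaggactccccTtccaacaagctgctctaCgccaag
PLXNA3: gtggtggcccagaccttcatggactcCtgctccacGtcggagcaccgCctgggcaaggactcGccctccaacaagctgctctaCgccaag

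Nearer still was Bt.110875, which differed at 4 bases from bases 5048 to 5137 of PLXNA4, also in the coding sequence:
PLXNA4: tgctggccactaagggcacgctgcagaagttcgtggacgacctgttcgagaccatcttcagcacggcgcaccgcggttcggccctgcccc
Bt.110875: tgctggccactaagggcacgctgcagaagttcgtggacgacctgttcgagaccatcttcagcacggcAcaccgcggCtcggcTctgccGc

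For ATP12A, 2 reads were counted in ATFB, against 466 in ATAB, 361 in ATAH and 54 in ATAS. Per length, as reads per kilobase of the cluster and per 1 M counted reads (RPKM), this was 0.0384 in the fetal library (95% Poisson interval 0.00465 to 0.139), 8.47 in ATAB (7.72 to 9.28), 6.80 in ATAH (6.11 to 7.53) and 1.02 in ATAS (0.765 to 1.33). The bull and heifer libraries were high, the steer library was low, and the fetal library, as the choice of the gene asked, was lowest. All intervals cover counting error alone, because these reads carry no molecular identifiers and several can stem from 1 molecule.

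RAB3B was counted 6 times in ATFB, and 814 times in ATAB, 538 in ATAH and 946 in ATAS. This was 0.340 RPKM (0.125 to 0.741) in the fetal library, 43.7 (40.7 to 46.8) in ATAB, 29.9 (27.4 to 32.5) in ATAH and 52.7 (49.4 to 56.2) in ATAS. The 3 adult libraries lay close together and far above the fetal one, and their own intervals did not overlap.

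The reads of PLXNA4 numbered 4 in ATFB but 472 in ATAB, 475 in ATAH and 1110 in ATAS. Per length this was 0.0448 RPKM (0.0122 to 0.115) in the fetal library, 5.0 (4.56 to 5.48) in ATAB, 5.22 (4.76 to 5.71) in ATAH and 12.2 (11.5 to 13.0) in ATAS. The steer library was the highest, and the intervals of the bull and heifer libraries overlapped.

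**Figure D1:**
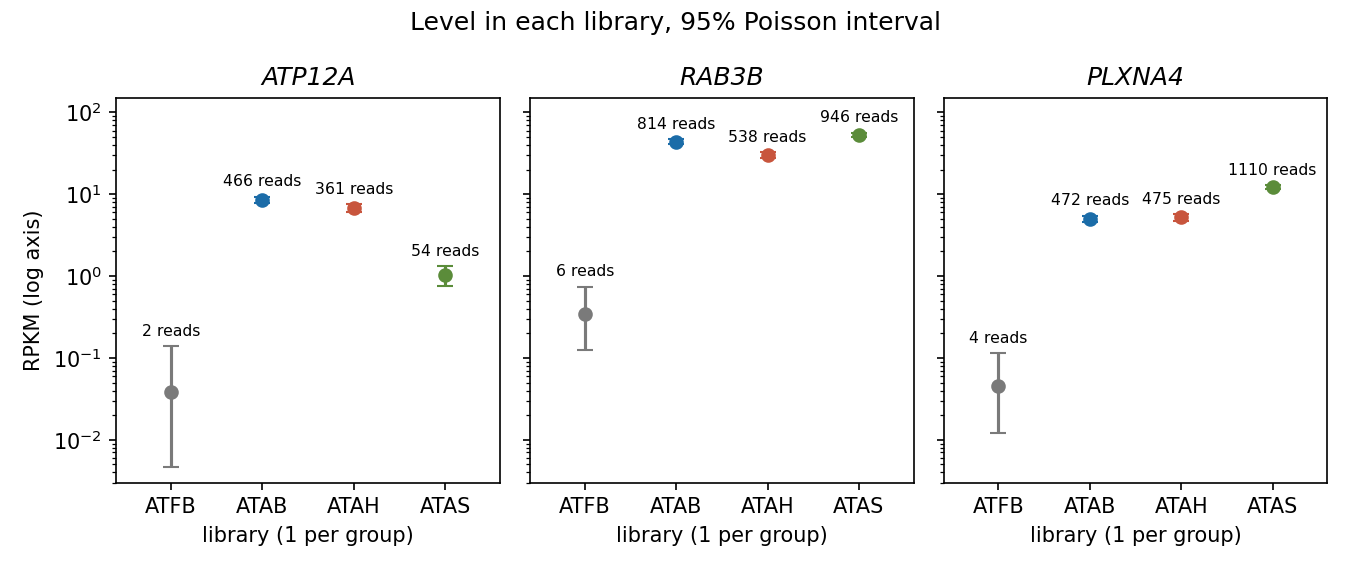
RPKM on a log axis of ATP12A, RAB3B and PLXNA4 in the 4 libraries, 1 point per library with its 95% Poisson interval (counting error only) and its read count. ATFB lies at 0.0384, 0.340 and 0.0448 RPKM, below every adult library, and ATAS is the lowest adult library for ATP12A and the highest for PLXNA4 and, with total-read scaling, for RAB3B.

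In ATFB the 2 ATP12A reads covered 180 bases, the 6 RAB3B reads 350 bases and the 4 PLXNA4 reads 263 bases, which is 89.9, 58.3 and 65.7 bases per read. These are numbers of covered bases without positions, so where the reads lay was not analysed here. In the adult libraries, reads covered 94.1% of ATP12A in the bulls, 95.8% in the heifers and 66.9% in the steers, and at least 98.1% of RAB3B and 95% of PLXNA4. Among clusters of like depth and length in the same library, the median coverage was 60.5% for ATP12A in ATAS, 95.2% for RAB3B in ATAB and 90.2% for PLXNA4 in ATAB, and the adult reads of the 3 genes covered about as much as or more than that.

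ATP12A stood at 220 times its ATFB level in ATAB (95% Clopper-Pearson interval 60.7 to 1830), 177 times in ATAH (48.6 to 1470) and 26.5 times in ATAS (6.99 to 224). The width of these intervals comes from the 2 fetal reads, and with that count set to 3 reads, as had been planned, the ratios were 147, 118 and 17.7. For RAB3B the ratios were 128 (58.7 to 351), 87.8 (40.1 to 240) and 155 (70.9 to 423) in ATAB, ATAH and ATAS. For PLXNA4 they were 112 (43.3 to 411), 116 (45.1 to 429) and 272 (106 to 1000). In pooled bulk tissue, more cells of a type and more RNA per cell cannot be told apart, and here age, feeding and the source of the animals went with the stage. Sex may have differed as well, since the Y-linked DDX3Y had 0, 234, 2 and 298 reads in ATFB, ATAB, ATAH and ATAS and OFD1Y had 0, 125, 0 and 293, so that ATFB was like the heifers and unlike the bulls and steers. Its part in the ratios of ATAB and ATAS to ATFB was not tested, and the ratios of ATAH to ATFB were 177, 87.8 and 116.

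The fetal share, which is the value that chose the 3 genes, is set here among other genes as a description. They are counted because of their adult reads, so their place at the low end follows from the choice and nothing is read from it. Of 3259 genes with a symbol and at least 100 reads in 1 library, 14 had no more than 0.5% of their summed RPKM in ATFB, 25 no more than 1% and 55 no more than 2%. PLXNA4, with 0.199%, was eighth from the bottom, ATP12A, with 0.235%, was the ninth, and RAB3B, with 0.269%, was the tenth. The 7 genes before them had no ATFB read, and the Y-linked genes DDX3Y and OFD1Y were among them. Over all clusters, 6.79% were called higher in each of the 3 adult libraries than in ATFB, which the 3 genes were by their choice.

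Among the adult libraries the 3 genes parted. The level of ATP12A in ATAB was 8.31 times that in ATAS (6.26 to 11.2) and its level in ATAH 6.67 times that in ATAS (5.0 to 9.05), while ATAB and ATAH differed by a log2 ratio of only -0.32 (-0.52 to -0.12, ATAH over ATAB). PLXNA4 went the other way, and ATAS was 2.44 times ATAB (2.19 to 2.72) and 2.34 times ATAH (2.10 to 2.61). RAB3B in ATAS was at 1.76 times ATAH (1.58 to 1.96) and above ATAB with total reads but not with the other scaling given next, and ATAB was 1.46 times ATAH (1.31 to 1.63). The adult libraries took part in the choice of the genes, each is 1 pool, and these intervals hold no spread between animals.

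The small differences between ATAB and the other adult libraries depended on the scaling. Weighting the libraries by trimmed means of M values (TMM) in place of total reads moved every log2 ratio by -0.28 from ATAB to ATAH, -0.29 from ATAB to ATAS and -0.02 from ATAH to ATAS. Under it the RAB3B ratio from ATAB to ATAS went from 0.27 (0.13 to 0.41) to -0.02, and the PLXNA4 ratio from ATAB to ATAH from 0.06 (-0.13 to 0.25) to -0.22, so neither has a fixed direction. The ATP12A ratios to ATAS, at -3.06 from ATAB and -2.74 from ATAH, and the PLXNA4 ratios to ATAS, at 1.29 and 1.23, kept their direction under TMM and under scaling to ACTB, the actin gene that was the study's qRT-PCR reference. The order of levels was thus ATAB, ATAH, ATAS and ATFB for ATP12A under all 3 scalings. For PLXNA4 it was ATAS, then ATAB and ATAH without a fixed order, then ATFB. For RAB3B it was ATAB and ATAS without a fixed order, then ATAH, then ATFB.

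**Figure D2:**
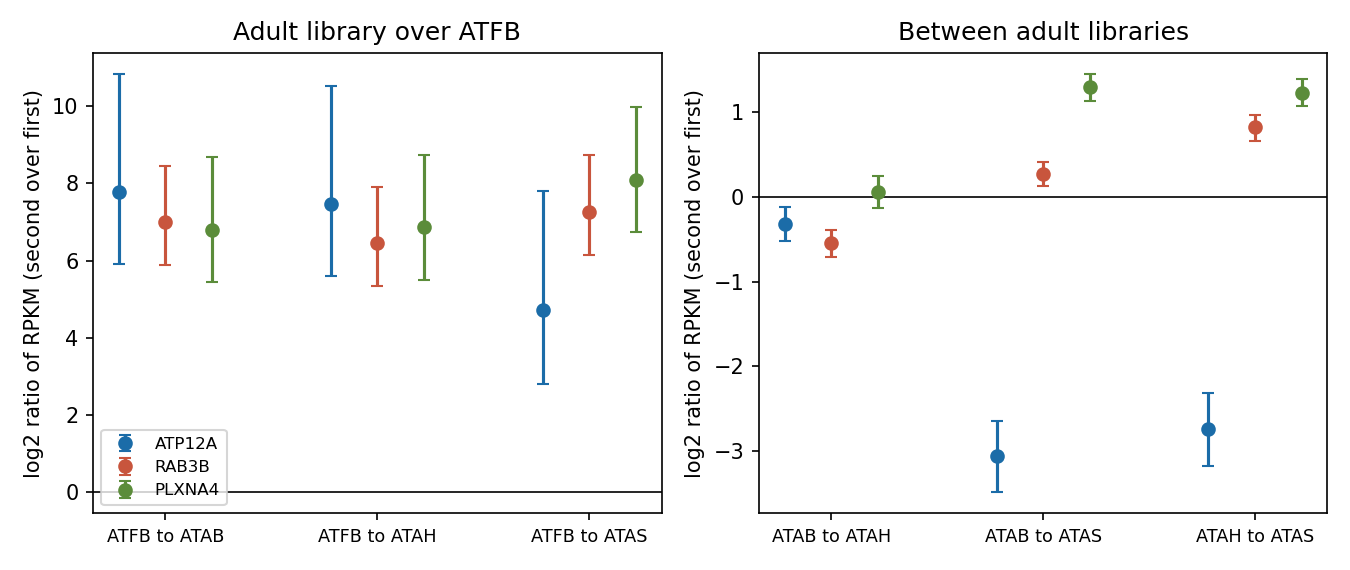
log2 ratios of RPKM (second library over first) of the 3 genes with 95% Clopper-Pearson intervals, against ATFB on the left and between adult libraries on the right, where the line marks equal levels. The 9 ratios to ATFB lie between 4.73 and 8.09, ATP12A falls to -3.06 and -2.74 in ATAS, and RAB3B and PLXNA4 lie at or above 0.27 in the same 2 comparisons with total-read scaling.

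The balance among the 3 genes changed with it. RAB3B was the highest of the 3 per length in every library, at 5.16 times ATP12A in ATAB (4.60 to 5.79), 4.40 times in ATAH (3.84 to 5.04) and 51.7 times in ATAS (39.3 to 69.4). PLXNA4 stood at 0.591 times ATP12A in ATAB (0.519 to 0.673), 0.767 times in ATAH (0.668 to 0.883) and 12 times in ATAS (9.12 to 16.1). RAB3B lay above 94.4% of the clusters with reads in ATAB, 90.4% in ATAH and 94.8% in ATAS. ATP12A stood at 73.4%, 65.7% and 32.3%, and PLXNA4 at 63.0%, 60.4% and 76.1%.

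To name genes with a like pattern, each gene was written as the 4 shares of its own summed RPKM, and the distance between 2 genes was 0.5 of the summed absolute differences, in percentage points. The shares of ATP12A in ATFB, ATAB, ATAH and ATAS were 0.235%, 51.9%, 41.6% and 6.24%. Among its 5 nearest genes were XPNPEP2, a membrane-bound aminopeptidase, at 10.8 points, CIDEA, a lipid droplet protein, at 11.2, ME1, the malic enzyme that makes NADPH, also at 11.2, and SCD, the desaturase that makes oleate, at 13.3. All 4 were higher in ATAB and ATAH than in ATAS. SCD had 177, 5560, 5490 and 2540 RPKM and ME1 had 2.67, 68.2, 43.7 and 21.4 RPKM in the same order. In ATAS neither was as low, relative to its peak, as ATP12A. Nothing is read from their higher ATFB shares, because ATP12A was chosen for its few ATFB reads. No gene came within 10 points of ATP12A, and the median over all genes compared was 44.6.

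RAB3B, with shares of 0.269%, 34.5%, 23.6% and 41.6%, had 31 genes within 10 points, and the median was 24.7. The nearest were O3FAR1, a receptor for long-chain fatty acids, at 3.41 points, FGD2, an exchange factor for a small GTPase, at 4.25, ECHDC3, a mitochondrial protein with an enoyl-CoA hydratase domain, at 5.17, VGLL3, a transcription cofactor, at 5.49, and GDA, which deaminates guanine, at 6.21. Against 0.435 RPKM in ATFB, O3FAR1 had 12.5 in the bulls, 10.5 in the heifers and 16.6 in the steers. Its fetal share was 1.09%, and a share above that of RAB3B follows from the choice of RAB3B.

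PLXNA4, with shares of 0.199%, 22.3%, 23.2% and 54.3%, had 37 genes within 10 points, and the median was 26.7. Nearest were APOL6 at 3.73 points, SYT15B, whose cluster is described as a synaptotagmin, at 4.56, CYP1B1, a cytochrome P450, at 5.28, CPT1A, which passes fatty acids into mitochondria and is represented by a partial sequence, at 5.34, and DOCK8, an exchange factor known from leukocytes, at 5.36. Against 0.439 RPKM in ATFB, CYP1B1 had 11.7 in the bulls, 12.7 in the heifers and 23.9 in the steers, and SYT15B had no ATFB read and 2.64, 3.52 and 6.51 RPKM in the adults. Between the 3 genes themselves the distance was 12.7 points for RAB3B and PLXNA4, 35.4 for ATP12A and RAB3B and 48.1 for ATP12A and PLXNA4. These distances rest on 4 libraries and describe likeness in them alone.

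**Figure D3:**
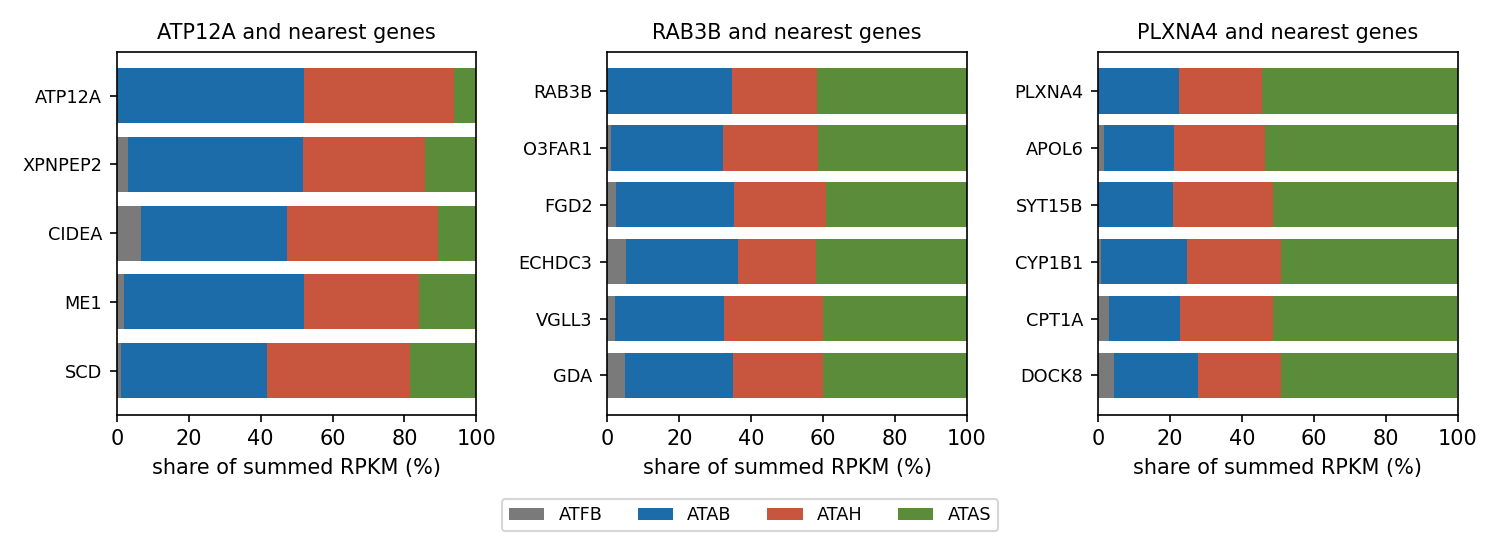
Share of each gene's summed RPKM (%) that fell in ATFB, ATAB, ATAH and ATAS, for each of the 3 genes and the 4 or 5 nearest genes named in the text. The ATAS share is 6.24% in ATP12A, 41.6% in RAB3B and 54.3% in PLXNA4, and the ATFB share of each of the 3 is too small to be seen.

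The other genes of each pathway were read from lists and called between 2 libraries by an exact two-sided binomial test of their reads, at a false discovery rate (FDR) of 0.001 or less and at least a 2-fold ratio, which compares 2 libraries and not 2 conditions. By this rule 22.6% of all tested clusters were called between ATFB and ATAB (9.51% upward and 13.1% downward), 23.7% between ATFB and ATAH (13.9% and 9.83%) and 26.0% between ATFB and ATAS (15.5% and 10.5%). Called in all 3 were 6.79% higher in the adults and 6.1% lower. These shares are over all clusters, many of which have too few reads to be called, and no share over clusters with more reads was computed. With ATFB set against all 3 adult libraries in edgeR's quasi-likelihood test at an FDR of 0.05, 18.2% were called, 9.83% higher in the adults and 8.40% lower. Other scalings moved all ratios to ATFB together, by 0.18, -0.10 and -0.12 in log2 for ATAB, ATAH and ATAS with TMM and by -0.24, -0.27 and -0.25 with ACTB, which turns the sign of a median smaller than that shift in a list and in all clusters alike. The edgeR test treats bulls, heifers and steers, which are different conditions, as replicates and ATFB as a group of 1, and it uses the same reads, so its FDR values are given beside the calls and not as support for them. Its 4664 calls became 7121 without ATAB and 2325 without ATAH.

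The P-type ATPase list holds the Na+/K+ and gastric H+/K+ pump chains, the beta chains and the FXYD and NKAIN regulators. Of its 21 genes, 13 had a named cluster. None was called higher and 1 lower in ATAB, 2 higher and 1 lower in ATAH, and 4 higher and 1 lower in ATAS. The median log2 ratio of the list and of all clusters was -0.08, -0.03 and -0.03, but this is the value that setting counts under 3 to 3 reads for the ratio gives to a cluster with few reads in both libraries (14.4% to 14.7% of those tested), so nothing is read from it. Over genes with at least 40 reads in the 4 libraries together, a limit set after the data were seen, the median of 7 genes of the list was -0.24, -0.12 and -0.06, against -0.12, 0.15 and 0.18 over all clusters with as many reads.

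No beta chain of the list was called higher in ATAB or ATAH, where ATP12A was highest. ATP1B3, a beta chain of the sodium pump, had 30.1 RPKM in the fetal library and 21.4, 23.9 and 22.8 in ATAB, ATAH and ATAS and was not called, ATP1B1 had no named cluster, and ATP4B had 1 read over the 4 libraries together. ATP4A, the gastric proton pump, had only 1, 12, 25 and 24 reads, was called higher in ATAH and ATAS, and had an edgeR FDR of 0.0441. FXYD5, a small regulator of the sodium pump, fell in all 3 adult libraries, from 260 RPKM to 106, 72.3 and 95.4 (edgeR FDR = 0.0325). ATP1B2 and NKAIN2, named after their values were seen, were also called higher in ATAS, with 80 reads against 36 and 15 against 0.

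The Rab3 and regulated exocytosis list holds the other Rab3 proteins, Rab27, their regulators, their effectors and the SNARE proteins that fuse vesicles. A named cluster was found for 35 of its 46 genes. In ATAB 3 were called higher and 2 lower, in ATAH 8 and 2, and in ATAS 11 and 0. With TMM scaling, 8 in place of 5 were called between ATFB and ATAB. The median log2 ratio was 0.00, 0.21 and 0.31, and with ACTB the 0.21 of ATAH turns negative. With at least 40 reads, the median of 29 genes was 0.00, 0.21 and 0.55, against -0.12, 0.15 and 0.18 over all clusters.

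None of the other Rab3 genes was called higher in all 3 adult libraries. RAB3A had 32, 34, 11 and 22 reads in ATFB, ATAB, ATAH and ATAS, RAB3C had 0, 6, 9 and 4, and RAB3D had 118, 197, 226 and 337. Per length RAB3D was the highest of the 3, with 5.21 RPKM in ATFB and 8.22, 9.77 and 14.6 in the adults, so that in ATFB it stood above the 0.340 RPKM of RAB3B and in each adult library below it. RAB3D was called higher in ATAS only, and edgeR gave an FDR of 0.0878. RAB27A, another GTPase of secretory vesicles, had 6.61, 2.91, 3.57 and 4.61 RPKM and was called lower in ATAB alone (edgeR FDR = 0.0698).

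Of the effectors and regulators, 3 rose in every adult library. This is 8.57% of the 35 genes of the list, against 6.79% of all clusters, a base that holds many clusters with few reads. Nothing is read from the difference. SYTL3, a synaptotagmin-like protein that binds Rab27, had 0.438 RPKM in ATFB and 1.39, 2.66 and 5.40 in ATAB, ATAH and ATAS (edgeR FDR = 0.0562). UNC13B, which primes vesicles for fusion, had 2.21 and then 5.28, 11.4 and 12.3 RPKM (edgeR FDR = 0.0290). STXBP2, a Munc18 protein that holds syntaxin, had 4.93 and then 17.3, 19.4 and 20.2 RPKM (edgeR FDR = 0.0123). By edgeR, 4 of the 30 tested genes of the list rose (13.3%, against 9.83% of all clusters) and 0 fell, and the other two, named after their values were seen, were RAB3GAP2 (FDR = 0.0302) and SYTL4 (FDR = 0.0345). RAB3GAP1, the catalytic part of the Rab3 GTPase-activating complex, had 18.3, 25, 28.0 and 28.9 RPKM, and SNAP23, a SNARE of the cell membrane, had 4.96, 3.58, 4.59 and 5.32 RPKM, and neither was called.

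The plexin list holds the other plexins, the neuropilins, the semaphorins and the proteins that act behind the receptor. Of its 47 genes, 30 had a named cluster. In ATAB 8 were called higher and 5 lower, in ATAH 11 and 4, and in ATAS 15 and 3. The median log2 ratio was 0.24, 0.47 and 0.99. With at least 40 reads, the median of 28 genes was 0.32, 0.56 and 1.05, against -0.12, 0.15 and 0.18 over all clusters.

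Among the receptors, the closest relative with a full sequence, PLXNA2, had 4.70 RPKM in ATFB and 7.66, 13.3 and 15 in ATAB, ATAH and ATAS, and was called higher in ATAH and ATAS (edgeR FDR = 0.0509). In ATFB PLXNA2 thus stood far above the 0.0448 RPKM of PLXNA4, and in ATAS the 2 genes were at 15 and 12.2 RPKM. PLXNC1, a receptor of SEMA7A, rose from 0.159 RPKM to 1.41, 1.19 and 2.87, and PLXNB3, a receptor of class 5 semaphorins, from 0.317 RPKM to 1.74, 3.14 and 2.73. PLXNA1 and the ligand gene SEMA3A had no named cluster.

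The neuropilins are the partners through which class A plexins bind most class 3 semaphorins. NRP1 had 30.0 RPKM in ATFB and 58.7, 62.0 and 65.9 in the adults, and was called higher in ATAH and ATAS (edgeR FDR = 0.0716). NRP2 rose in all 3, from 2.03 RPKM to 6.91, 9.05 and 13.1 (edgeR FDR = 0.0168). Both were thus read in ATFB, where PLXNA4 had 4 reads.

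SEMA4D, a membrane-bound ligand of B plexins, rose from 1.03 RPKM to 4.57, 9.47 and 9.95 (edgeR FDR = 0.0143). In all, 6 of the 30 genes were called higher in every adult library (20%, against 6.79% of all clusters) and 2 lower (6.67%, against 6.1%). All clusters include many with few reads, so these shares do not have a like base. The other two that rose, named after their values were seen, were PLXNB2 and SEMA7A. The 2 that fell were DPYSL5, a relative of the collapsin response mediators, with 32 reads in ATFB and 1, 0 and 6 in the adults (edgeR FDR = 0.0619), and PLXNA3, named after its values were seen, with 14.0 RPKM and then 6.06, 5.04 and 4.54 (edgeR FDR = 0.0323). The counts of all 3 lists hold counting error only, and with edgeR's exact test and a coefficient of variation between animals assumed to be 0.4, 0 genes of any list were called between ATFB and an adult library.

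**Figure D4:**
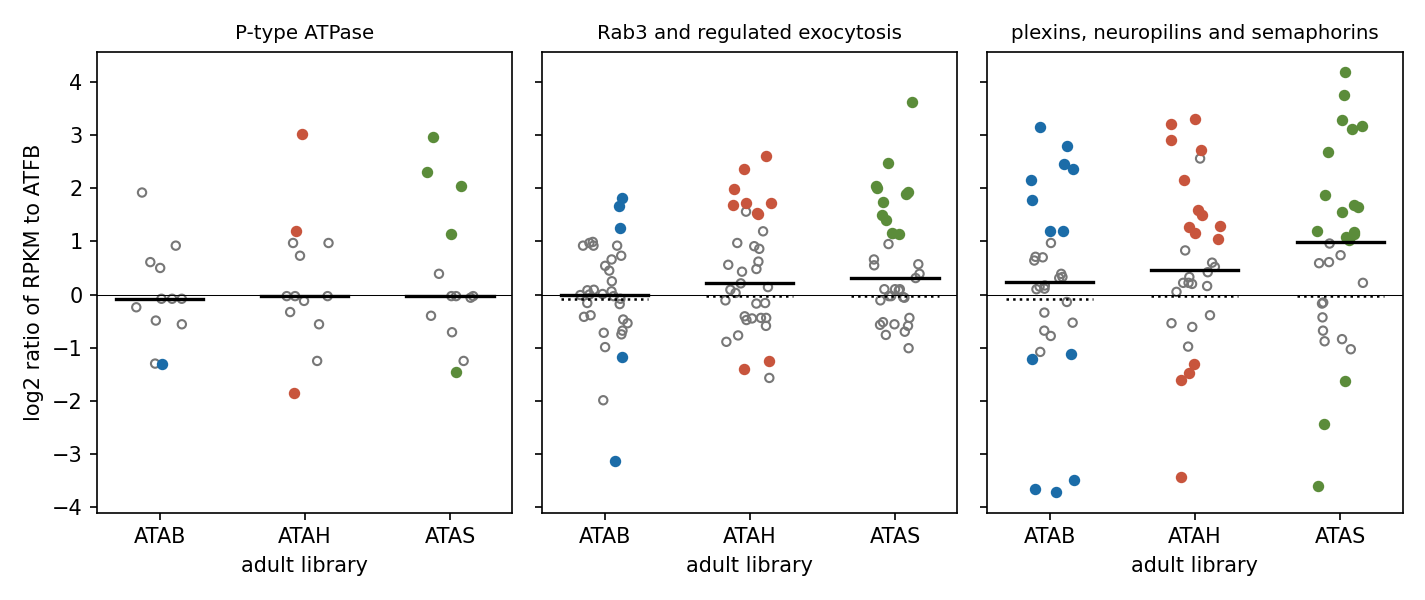
log2 ratio of RPKM of ATAB, ATAH and ATAS to ATFB for each gene of the 3 pathway lists (counts under 3 set to 3 reads). Filled points were called by the 2-library rule and open points were not, the solid bar is the median of the list and the dotted bar that of all clusters, and in ATAS the plexin list has its median at 0.99 against -0.03, a value that the floor of 3 reads gives to clusters with few reads.

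The tissue itself differed between the libraries, and its markers are given beside the 3 genes. Of 10 adipocyte markers with a cluster, all were called higher in the bulls and the heifers and 8 in the steers. Over all tested clusters the shares called higher were 9.51%, 13.9% and 15.5% in ATAB, ATAH and ATAS. The summed RPKM of the 10 markers was 1210 in the fetal library and 16300, 14600 and 9990 in ATAB, ATAH and ATAS. They did not move together among the adults, and 4 of the 10 were higher in ATAS than in ATAB and 6 lower. SCD, at 5560 RPKM in ATAB and 2540 in ATAS, DGAT2, at 3220 and 1300, and THRSP, at 3190 and 597, carried the lower sum of ATAS, while PLIN1, which coats lipid droplets, had 520, 834 and 1000 RPKM in ATAB, ATAH and ATAS and LIPE, the hormone-sensitive lipase, 505, 767 and 1020. The 7 preadipocyte and fibroblast markers summed to 11400, 7960, 2510 and 3280 RPKM. They did not move together. In ATFB and ATAB, COL1A1 had 4170 and 3410 RPKM, COL3A1 1980 and 2900, and DCN 3920 and 1110. Of the 7, 2 were called lower in every adult library and 0 higher, against 6.1% and 6.79% of all clusters. Each of the 10 adipocyte markers had reads in all 4 libraries, and FABP4 and PPARG had no named cluster.

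Per 1000 RPKM of the adipocyte markers, ATP12A had 0.0317 RPKM in the fetal library and 0.520, 0.466 and 0.102 in ATAB, ATAH and ATAS. RAB3B had 0.281, 2.68, 2.05 and 5.27, and PLXNA4 had 0.0370, 0.307, 0.357 and 1.22. These values depended on the marker. Per 1000 RPKM of THRSP, PLXNA4 had 1.43 in ATFB and 1.57 in ATAB, and RAB3B had 10.9 and 13.7. Per LIPE, ATP12A had 0.963 in ATFB and 0.995 in ATAS, and per LEP, the leptin gene, 11.9 and 13.6. Per LPL the gap was wide. PLXNA4 had 0.249 in ATFB and 8.83 in ATAB, RAB3B 1.89 and 77.1, and ATP12A 0.213 in ATFB and 3.35 in ATAS. The ATFB values of ATP12A, RAB3B and PLXNA4 rest on 2, 6 and 4 reads. From ATAB to ATAS, PLXNA4 changed 3.98 times per summed markers, but 1.21 times per LIPE, 1.26 times per PLIN1 and 13.0 times per THRSP. RAB3B changed 1.97 times per summed markers, and from 0.596 times per LIPE to 6.44 times per THRSP, so it has no fixed direction on this scale. ATP12A was lower in ATAS per summed markers (0.196 times) and per each of the 10 markers (0.0594 to 0.642 times).

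ATP12A is also known from skin and other epithelia. Of 12 epithelial markers, 10 had a cluster. In ATAB, ATAH and ATAS taken singly, 1 was called higher and 4 lower each time. KRT18 was among the 4 in ATAB, with CLDN4 in its place in ATAH and ATAS. Over all tested clusters these shares were 9.51% to 15.5% and 9.83% to 13.1%. In all 3 libraries, 1 marker was called higher and 3 lower, against 6.79% and 6.1% of all clusters. The 10 markers summed to 19.5 RPKM in the fetal library and to 138, 29.7 and 12.3 in ATAB, ATAH and ATAS. The order of the 3 adult sums was that of ATP12A. The sum in ATAB was nearly all KRT19, which had 1.73, 127, 20.3 and 4.13 RPKM. KRT14, which defines basal skin cells, was at 5.43 RPKM in ATFB, had no read in ATAB and 2 reads each in ATAH and ATAS, and KRT18 had no read in ATAB. The part of epithelial cells in the ATP12A level was not tested.

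RAB3B and PLXNA4 are known from nerve and secretory cells. The 12 nerve and Schwann cell markers with a cluster summed to 213, 286, 328 and 308 RPKM. Of these, 2 were called higher and 5 lower in ATAB, 2 and 4 in ATAH and 1 and 3 in ATAS. Over all tested clusters the shares were 9.51% and 13.1% in ATAB, 13.9% and 9.83% in ATAH, and 15.5% and 10.5% in ATAS. S100B, which adipocytes also make, held most of the adult sum, with 18.1 RPKM in ATFB and 215, 219 and 209 in the adults, while SOX10 and NGFR, which mark Schwann cells, fell in all 3 adult libraries, SOX10 from 2.34 RPKM to 0.352, 0.494 and 0.860. The neuronal markers went both ways, and TUBB3 had 16, 49, 2 and 8 reads and was called higher in ATAB, while UCHL1 had 322, 101, 779 and 180 reads and was called lower in ATAB and higher in ATAH. MBP, a myelin protein, had 114, 151, 157 and 152 reads and was not called. The 7 neuroendocrine markers summed to 4.06, 2.06, 4.98 and 16.4 RPKM, with SCG2 at 0.162, 0.384, 3.16 and 14.2 RPKM and CHGA at 26 reads in ATFB and 0, 4 and 2 in the adults. NEFM and PCSK2, markers of neurons and of secretory granules, had only 2 reads and 1 read in ATAS and no read in the other libraries.

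The 7 leukocyte markers summed to 328, 837, 1100 and 1980 RPKM, and the 5 endothelial markers to 224, 316, 438 and 570 RPKM. Both sums were highest in ATAS, as was PLXNA4. Called higher in every adult library were 4 of the 7 leukocyte markers and 1 of the 5 endothelial markers, VWF. Over all clusters the share was 6.79%. CD74 had 206, 624, 900 and 1660 RPKM and PTPRC 2.17, 7.91, 9.59 and 16.8 RPKM. The 4 skeletal muscle markers with a cluster summed to no more than 5.04 RPKM in any library. The part of nerve, secretory, vessel and blood-borne cells in the PLXNA4 and RAB3B levels was not tested.

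**Figure D5:**
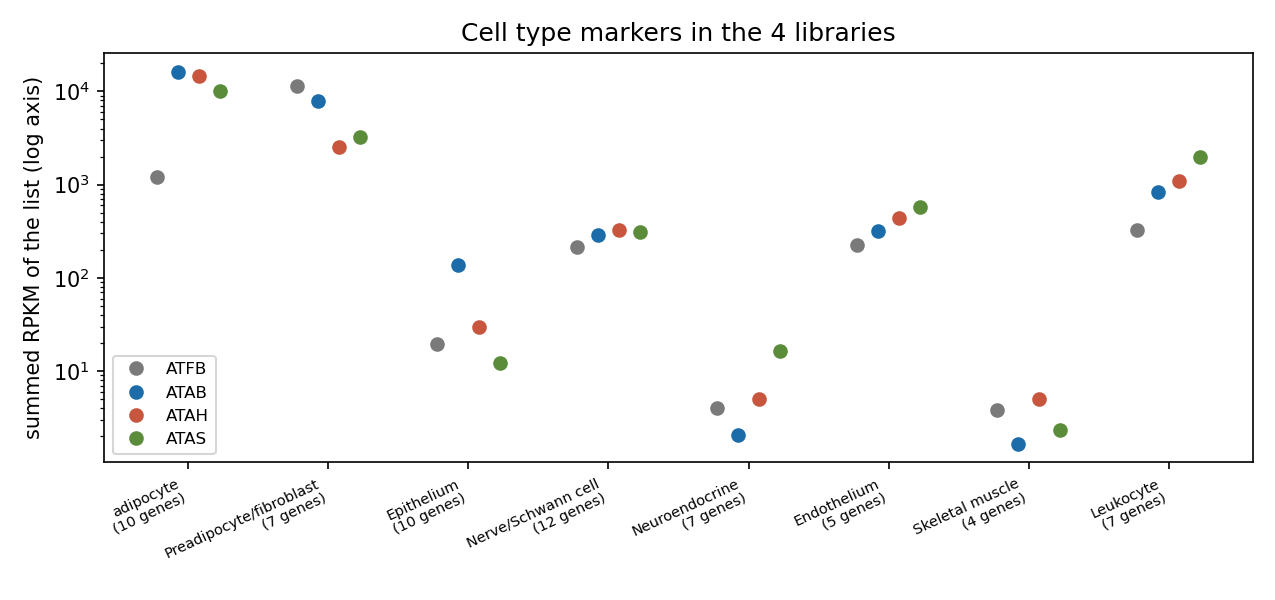
Summed RPKM on a log axis of 8 lists of cell type markers in the 4 libraries, 1 point per library, with the number of marker genes that had a cluster. The adipocyte sum is 1210 RPKM in ATFB and 9990 to 16300 in the adults, the leukocyte sum grows from 328 to 1980 RPKM between ATFB and ATAS, and the epithelial sum is highest in ATAB at 138 RPKM.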

How the data were processed

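Poly(A) RNA of 4 pooled libraries, 1 per group, was sequenced. The authors aligned cleaned Illumina reads with SOAPaligner, kept reads with 1 match and deposited whole-number counts per UniGene cluster without normalization, the RPKM they computed from these counts, and the coverage in percent of the cluster length. A cluster without a value was taken as 0 reads. The counting was not stated to use strand. Symbols came from the authors' sequence headers and RefSeq names (assembly ARS-UCD2.0), for 3447 clusters by accession, 1549 by a symbol in the header and 74 by the described gene, and genes that no cluster named were left out. Of 2 clusters for 1 symbol, that with the most reads was used. Coordinates were not used, and a few genes that these rules name are not reported here.

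Between 2 libraries, the exact binomial test was two-sided (2 times the smaller tail) with the totals as expectation, Benjamini-Hochberg adjusted over all clusters with a read, with counts under 3 set to 3 for the ratio. ATFB was compared with the 3 adult libraries by edgeR 4.0.16 (quasi-likelihood, TMM, filterByExpr, Benjamini-Hochberg), and the scripts ran under R 4.3.3 and Python 3.11.15. Poisson and Clopper-Pearson intervals were at 95%. Sequences were aligned with blastn and compared without gaps in windows of 90 bases. The tests were checked on simulated counts. The 3 genes, the lists and the rules were chosen with earlier results of these data known. Beside the 3 genes, the text names the 5 genes nearest to each in pattern, partners picked for their role, and up to 4 genes of each list called alike in all 3 comparisons by their median ratio. Alternatives were TMM or ACTB scaling, a minimum of 10 reads, an assumed variation of 0.4, 0.5 added reads, DESeq2 1.42.0, no filter, no TMM and leaving out an adult library. For the ratios of the 3 genes a floor of 3 reads was planned, and the use of the reads as counted in its place was chosen after the data were seen. A limit of 5 mismatches, single adipocyte markers and medians over genes with at least 40 reads were also added then.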

Additional observations from a re-analysis of the deposited data

How the results depend on the processing

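Depth limits the ATFB values of the 3 genes, which rest on 2, 6 and 4 reads, and 1 library per group leaves the spread between animals unmeasured. The 9 log2 ratios to ATFB stayed inside their intervals under each of the 4 alternatives (TMM, ACTB, 0.5 added reads, a floor of 3 reads). TMM moved the ATAB to ATAH ratio of ATP12A from -0.32 to -0.59, of RAB3B from -0.55 to -0.82 and of PLXNA4 from 0.06 to -0.22, and the ATAB to ATAS ratio of PLXNA4 from 1.29 to 0.99 and of RAB3B from 0.27 to -0.02, which turned its direction. With the assumed variation of 0.4, the called clusters fell from 7704, 8209 and 8972 to 184, 229 and 278 between ATFB and ATAB, ATAH and ATAS, and from 1819, 2942 and 1021 to 13, 5 and 12 between ATAB and ATAH, ATAB and ATAS, and ATAH and ATAS, and 0 genes were called in each of the 3 pathway lists between ATFB and any adult library. That setting adds spread that was not measured here. TMM raised the Rab3 and exocytosis calls between ATFB and ATAB from 5 to 8. Leaving out 1 adult library gave 2325 to 7121 edgeR calls against 4664, the lowest without ATAH and the highest without ATAB, and DESeq2 gave 5178, no filter 5109 and library totals 3755.

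The share of calls that were higher in the second library went with TMM from 42.1% to 53.2% (ATFB to ATAB), from 77.1% to 48.8% (ATAB to ATAH) and from 78.6% to 49.2% (ATAB to ATAS), and with ACTB from 42.1% to 29.4%, 58.6% to 42.7% and 59.6% to 46.0% (ATFB to ATAB, ATAH and ATAS). No paired analysis was possible because each group had 1 library. Adding the reads of clusters matched to the same RefSeq protein was not run, since protein sequences were not used here.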
